A study of Bos taurus with 6 samples.

Results

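The miR-181, miR-193 and miR-365 families were followed in the intramuscular fat (IMF) of Chinese Qinchuan males that had been castrated (steers) or left intact (bulls). The members were all rows of the deposited miRNA counts named miR-181a to miR-181d, miR-193a, miR-193b or miR-365, with or without an arm suffix. This gave 10 of 793 known bovine miRNAs, in a table of 8800 mature sequences. The animals were weaned at 3 months, fed the same diets and slaughtered at 24 months, and the steers had been castrated by surgery at 6 months. IMF was cut from the sternomandibularis muscle. Small RNA was sequenced in 2 libraries of steers and 2 of bulls, and mRNA in 1 library per group. The series' design text gives 3 pooled animals behind each miRNA library and 6 behind each mRNA library, whereas the sample descriptions give 1 and 3. All animals came from a single sire according to the study, so the groups hold little of the variation between sires. Since nothing shows more than 2 miRNA libraries per group, p-values rest on the spread between those libraries. The fits share information on this spread over sequences, so a p-value is not set by the libraries of its own miRNA alone.

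A miRNA is cut from a hairpin precursor, whose arms give a 5p and a 3p sequence. It guides the Argonaute complex to mRNAs that pair with its seed, bases 2 to 8 from the 5′ end, and these mRNAs are then repressed. The miR-181 family is best known from lymphocytes, where miR-181a sets the sensitivity of the T cell receptor by repressing phosphatases, and it is also made in muscle, vessels and fat. The neighbouring miRNAs miR-193b and miR-365 are known from brown fat, where they favour the fat cell program over the muscle program. The related miR-193a-3p carries the same seed as miR-193b.

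The mature sequences, taken from the study's list of known bovine miRNAs, are shown because the seed groups and the similarity between members bear on every count below. Seeds are in capitals, and sequences are written 5′ to 3′ with T for U.
miR-181a: aACATTCAacgctgtcggtgagtt
miR-181b: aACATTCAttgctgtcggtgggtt
miR-181c: aACATTCAacctgtcggtgagttt
miR-181d: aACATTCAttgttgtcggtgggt
miR-193a-3p: aACTGGCCtacaaagtcccagt
miR-193b: aACTGGCCcacaaagtcccgcttt
miR-193a-5p: tGGGTCTTtgcgggcgagatga
miR-193a: gGGACTTTgtaggccagtt
miR-365-3p: tAATGCCCctaaaaatccttat
miR-365-5p: aGGGACTTttgggggcagatgtg

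The 4 miR-181 rows share 1 seed, and miR-193a-3p and miR-193b share another. Positions are counted from 1 at the 5′ end. MiR-181b and miR-181d differ at 1 of 23 compared bases (C12T), and miR-181a and miR-181b at 3 of 24 (A9T, C10T and A21G). MiR-181c has the bases of miR-181a with the G at position 11 left out and a further T after the last base. MiR-193a-3p and miR-193b differ at 3 of 22 bases (T9C, A20G and G21C). How reads that match more than 1 of these sequences were counted is not given in the sources used here, so counts of such near-copies may be partly exchanged between rows.

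The members come from 11 hairpin genes in the RefSeq gene table of the ARS-UCD2.0 assembly, a later assembly than that of the study, so positions are not given. Of these genes, 10 lie in 5 pairs on shared chromosomes: MIR181A-1 with MIR181B-1, MIR181A-2 with MIR181B-2, MIR181C with MIR181D, MIR193B with MIR365-1, and MIR193A with MIR365-2. MIR181A-2 and MIR181B-2 overlap the nuclear receptor gene NR6A1, and MIR181C and MIR181D overlap NANOS3. MIR193A-2, listed as the hairpin of the row miR-193a, lies apart from the others and overlaps the zinc finger gene ZNF623. The rows miR-181a, miR-181b and miR-365-3p each sum the product of a pair of hairpins, which cannot be told apart by their mature sequence.

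Total counts were 10452582 and 8859844 for the steers libraries and 7784227 and 6556511 for the bulls libraries. Counts were scaled with TMM factors, which were 0.746 and 0.968 in steers and 0.972 and 1.42 in bulls, and are given as CPM, the count scaled to a common library size. Levels of different miRNAs are compared as scaled read counts, without correction for how well each sequence is ligated and read.

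MiR-181a was by far the most abundant member in every library. The miR-181 rows together took 2.39% and 3.43% of all counts in steers and 2.29% and 1.81% in bulls. MiR-181a made up 94.4% to 95.5% of that sum in the 4 libraries. The miR-193 and miR-365 rows together took 0.0389% to 0.0611% of the counts. In steers, miR-181b followed at a mean of 1034 CPM, then miR-181c at 529 CPM and miR-193b at 311 CPM. MiR-365-3p (106 CPM), miR-193a-3p (101 CPM) and miR-181d (85.1 CPM) came next in steers, and their libraries overlapped, so their order is not resolved. In bulls, the libraries of miR-193b and miR-181c overlapped, at means of 297 and 273 CPM. Those of miR-181d and miR-193a-3p also overlapped, at 38.0 and 27.5 CPM, as did those of miR-193a-3p and miR-193a-5p (20.8 CPM). The row miR-193a and miR-365-5p were lowest in both groups, and miR-365-5p had between 9 and 20 counts per library.

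**Figure D1:**
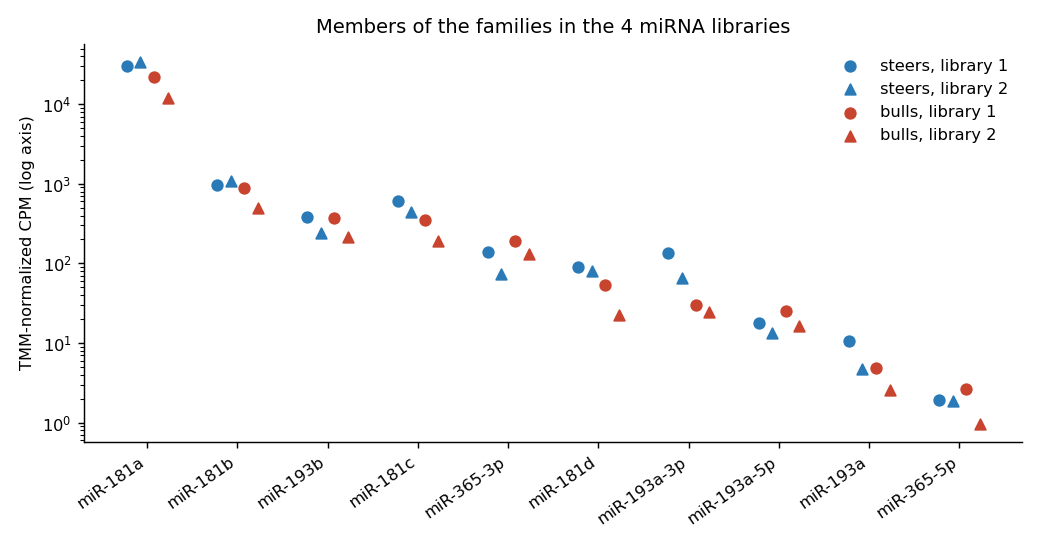
TMM-normalized CPM of each member in each of the 4 miRNA libraries, on a log axis, with members ordered by their mean in bulls. Blue points are steers and red points are bulls, circles library 1 and triangles library 2. Both steers libraries lie above both bulls libraries for the 4 miR-181 rows and for miR-193a-3p, and the groups overlap for the other 5 rows.

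The 4 libraries were compared in a single edgeR quasi-likelihood fit over the 1073 sequences that passed the filter on low counts, which all 10 members did. Calls needed a Benjamini-Hochberg adjusted p below 0.05 together with a log2 fold change beyond 1 in either direction. Of the 10 members, 1 was called upregulated in steers and 0 downregulated. In bulk samples, fewer cells of a type and less RNA per cell cannot be told apart. Over all sequences tested, 7.08% were called upregulated and 7.08% downregulated, and among the 396 known bovine miRNAs 5.05% and 7.58%. At an unadjusted p under 0.05 there were 3 members, compared with 27.3% of all sequences and 26.5% of known bovine miRNAs. DESeq2 and limma-voom also called 0 members downregulated. The log2 fold change was above 0 for 8 members and below 0 for 2, with a median of 0.74, compared with a median of -0.07 over all sequences tested. In 5 members both steers libraries lay above both bulls libraries after TMM scaling, which was so for 26.7% of all sequences and 24.0% of known bovine miRNAs. In 0 members both lay below, compared with 31.5% of all sequences and 35.4% of known bovine miRNAs.

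**Figure D2:**
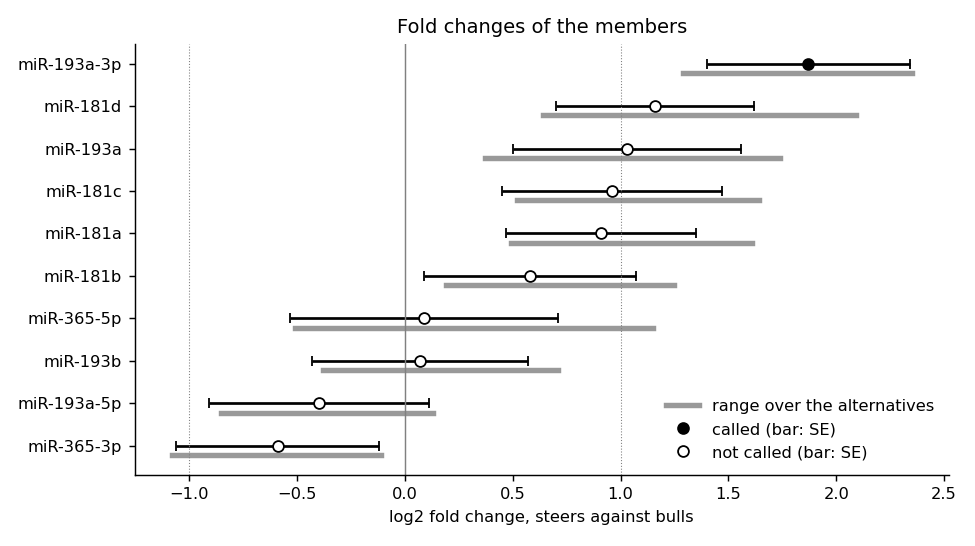
Log2 fold change of each member in steers against bulls, with its standard error as a bar. The filled point was called and the open points were not, and grey bars give the range over the alternative processing settings. MiR-193a-3p stands at 1.87, and the grey bars of the 4 miR-181 rows stay above 0.

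MiR-193a-3p was the member that rose in steers. The steers libraries held 1062 and 556 counts of it and the bulls libraries 229 and 231, or 136 and 64.9 CPM against 30.3 and 24.8 CPM. Both steers libraries were above both bulls libraries, and the first steers library was the highest by far. Steers averaged 101 ± 50.5 CPM (SD, n = 2) and bulls 27.5 ± 3.91 CPM. On the log2 scale edgeR estimated a difference of 1.87 (SE 0.47), adjusted p = 0.00222. The call was kept in 9 of 12 alternative settings, and over all 12 the adjusted p of edgeR, DESeq2 or limma-voom ran from 7.55e-05 to 0.327. It was lost when the first steers library was left out (log2 fold change 1.29, adjusted p = 0.327 from edgeR) and when the second was (2.35, adjusted p = 0.0860 from edgeR). It was also lost when libraries were scaled by their totals alone (1.35, adjusted p = 0.123 from edgeR).

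The other arm of the same hairpin, miR-193a-5p, gave different values. It was at 18.1 and 13.4 CPM in steers and 25.3 and 16.4 CPM in bulls. The groups overlapped, and edgeR put the log2 difference at -0.40 (SE 0.51), adjusted p = 0.633. This value was 0.13 without the first bulls library.

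The balance between the arms does not depend on how libraries are scaled. There were 7.53 and 4.83 counts of miR-193a-3p per count of miR-193a-5p in steers and 1.20 and 1.51 in bulls. Expressed as a share, the 3p arm made up 88.3% (95% exact binomial interval 86.3 to 90.0) and 82.9% (79.8 to 85.6) of the counts of both arms in steers. In bulls this share was 54.5% (49.6 to 59.4) and 60.2% (55.1 to 65.1). These intervals cover counting error only, since reads without molecular identifiers are not independent molecules. Steers averaged 2.59 ± 0.45 (SD, n = 2) for the log2 ratio and bulls 0.43 ± 0.24, which differ by 2.17. The exact permutation test (two-sided) gave p = 0.333, which is the smallest p that 2 libraries against 2 allow. As a background, chosen after these values had been seen, the same ratio was taken for all 34 known bovine hairpin names with both arms tested. Arms were paired by name alone, so a pair may sum the product of more than 1 hairpin. Both steers libraries lay above both bulls libraries in 41.2% of them and below in 17.6%. The median absolute difference was 0.79, and miR-193a ranked 2 of 34 by absolute difference, after miR-151 at 2.23. For miR-365 the 3p arm made up 97.5% to 99.3% of the counts of both arms, and the difference of the log2 ratio was -0.88 with overlapping groups. Its 3p row sums 2 hairpins and its 5p row is listed for MIR365-1 alone, so this is not the balance of a single hairpin.

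**Figure D3:**
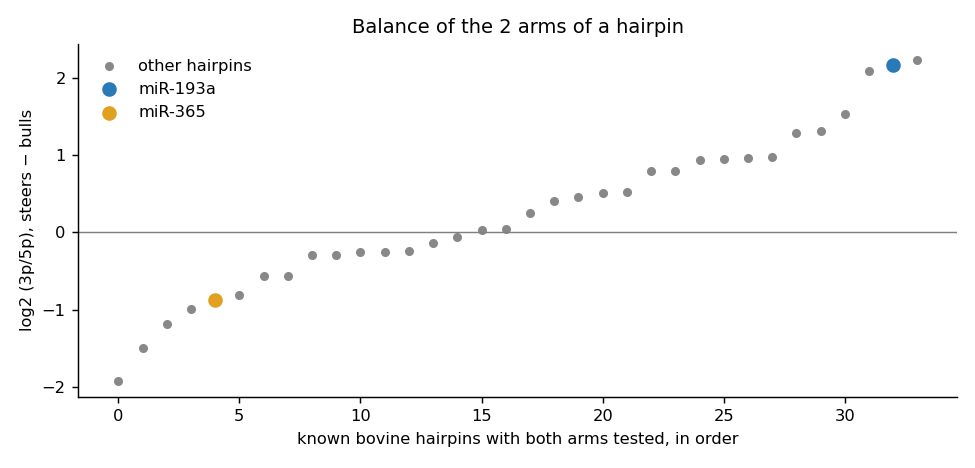
Difference between steers and bulls in the mean log2 ratio of 3p to 5p counts, for 34 known bovine hairpins, with arms paired by name, ordered by that difference. The blue point is miR-193a at 2.17, the yellow point miR-365 at -0.88, and grey points are the other hairpins. The 3p row of miR-365 also counts the product of MIR365-2, whereas its 5p row is listed for MIR365-1 alone.

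The row miR-193a, without an arm suffix, is complementary to miR-193a-3p. Its reverse complement, aactggcctacaaagtccc, is identical to the first 19 bases of miR-193a-3p, shown in capitals here.
miR-193a-3p: AACTGGCCTACAAAGTCCCagt
Whether strand was used in counting is not given in the sources used here, so reads of the row and of the 5′ part of miR-193a-3p cannot be told apart. Counts of the row were 82 and 40 in steers against 37 and 24 in bulls, or 10.5 and 4.67 CPM against 4.89 and 2.57 CPM. The first steers library was highest, and the second lay between the bulls libraries. Its log2 difference was 1.03 (SE 0.53), adjusted p = 0.184 by edgeR. It was 0.37 without the first steers library, 1.74 without the first bulls library and 0.60 without the second. Per count of miR-193a-3p the row held 0.0772 and 0.0719 in the steers libraries against 0.162 and 0.104 in bulls. ZNF623, the gene that overlaps its hairpin, stood at 398 mRNA counts in the pooled steers library and at 283 in that of bulls.

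MiR-193b carries the same seed as miR-193a-3p and was more abundant. It was at 379 and 243 CPM in steers and 377 and 217 CPM in bulls. The groups overlapped almost fully, and edgeR gave a log2 difference of 0.07 (SE 0.50) at an adjusted p of 0.948, which turned to -0.38 with library totals and to -0.31 without the second bulls library. MiR-193a-3p made up 26.4% (95% exact interval 25.1 to 27.8) and 21.1% (19.5 to 22.7) of the counts with this seed in steers. In bulls it made up 7.44% (6.54 to 8.42) and 10.3% (9.04 to 11.6). When the rows of both were summed before the fit, the seed stood at 516 and 308 CPM in steers and 407 and 241 CPM in bulls. The log2 difference of the sum was 0.36 (SE 0.50), adjusted p = 0.675 by edgeR.

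MiR-365-3p, whose hairpins neighbour those of miR-193b and miR-193a, was at 139 and 74.0 CPM in steers and 189 and 131 CPM in bulls. The second steers library was lowest, and the first lay between the bulls libraries. By edgeR the log2 difference was -0.59 (SE 0.47), adjusted p = 0.419, and it was below 0 in all 13 alternatives, from -1.08 to -0.11. MiR-365-5p, from the MIR365-1 hairpin, was the least abundant member with 15 and 16 counts per steers library against 20 and 9 per bulls library. The log2 difference was 0.09 (SE 0.62), and it turned to -0.29 with library totals and to -0.51 without the second bulls library.

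In the miR-181 family all 4 rows had higher values in both steers libraries than in either bulls library after TMM scaling, and 0 of the 4 were called. Over all sequences tested, 26.7% lay above in this way and 7.08% were called upregulated. The 4 rows are near-copies whose counts may be partly exchanged, so they are not separate observations. As a share of all counts miR-181b overlapped, at 0.0728% and 0.105% in steers and 0.0859% and 0.0705% in bulls, and the other 3 rows did not. The median log2 fold change of the 4 rows was 0.94. MiR-181a was at 30377 and 33863 CPM in steers and 22303 and 12002 CPM in bulls. The steers libraries lay close together, and the second bulls library was lowest, as it was for every miR-181 row. The mean was 32120.3 ± 2465 CPM (SD, n = 2) in steers and 17152 ± 7284 CPM in bulls, and edgeR put the log2 difference at 0.91 (SE 0.44). For miR-181a the adjusted p was 0.155 by edgeR, and over the alternatives it ran from 0.00211 to 0.841.

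MiR-181d had the largest fold change of the family. The steers libraries held 701 and 688 counts and the bulls libraries 403 and 212, or 89.95 and 80.3 CPM against 53.3 and 22.7 CPM. At a log2 difference of 1.16 (SE 0.46), its adjusted p of 0.0730 by edgeR missed the threshold. MiR-181d was called in 4 of 12 alternatives, with an adjusted p from 0.00291 to 0.709 in edgeR, DESeq2 or limma-voom. The bulls libraries differed by 2.35 times, more than the 2.24-fold difference between the group means.

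MiR-181c, the neighbour of miR-181d, was at 617 and 441 CPM in steers and 353 and 193.4 CPM in bulls. Its log2 difference was 0.96 (SE 0.51), adjusted p = 0.202 by edgeR. MiR-181b was at 977 and 1091 CPM in steers and 885 and 495 CPM in bulls. Its first bulls library lay just under the steers libraries, and edgeR put the log2 difference at 0.58 (SE 0.49), adjusted p = 0.448. Summed by seed, the family was at 32061 and 35476 CPM in steers and 23593 and 12713 CPM in bulls, and edgeR put its log2 difference at 0.91 (SE 0.44), adjusted p = 0.153.

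These values moved with the bulls library that was left out. Without the first bulls library miR-181a was at 1.61, miR-181c at 1.64 and miR-181d at 2.09 on the log2 scale and all 3 were called, as was miR-193a-3p, while miR-181b was at 1.25 and not called. Without the second bulls library the first 3 were at 0.49, 0.55 and 0.64 and miR-181b at 0.19, and none of the 4 was called. With library totals in place of TMM, miR-181a was at 0.52, miR-181b at 0.19, miR-181c at 0.52 and miR-181d at 0.78. These 4 values were lower than with TMM, as was miR-193a-3p at 1.35. All sequences together had a median of -0.56 with library totals and -0.07 with TMM. Relative to the median of -0.56, miR-181a was at 1.08, miR-181b at 0.75, miR-181c at 1.08, miR-181d at 1.34 and miR-193a-3p at 1.91. The direction of the 4 miR-181 rows was the same in all 12 alternatives.

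Ratios between neighbours, which also do not depend on scaling, were compared for 3 further pairs. There were 31.1 and 31.0 counts of miR-181a per count of miR-181b in steers and 25.2 and 24.2 in bulls. The groups lay apart for this pair, and the difference of the mean log2 ratio was 0.33. The ratio of miR-181c to miR-181d was 6.86 and 5.49 in steers and 6.61 and 8.51 in bulls, with overlapping groups and a difference of -0.29. The ratio of miR-193b to miR-365-3p was 2.74 and 3.29 in steers and 2.0 and 1.65 in bulls, a difference of 0.72. MiR-365-3p also sums the product of MIR365-2, which lies with MIR193A, so only a part of it comes from the neighbour of MIR193B. The exact permutation test (two-sided) gave p = 0.333 for miR-181a to miR-181b, 0.667 for miR-181c to miR-181d and 0.333 for miR-193b to miR-365-3p, where 0.333 is the smallest p the design allows. Together with the arms of miR-193a, 4 ratios were compared, and no adjustment could bring such p-values under the threshold.

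**Figure D4:**
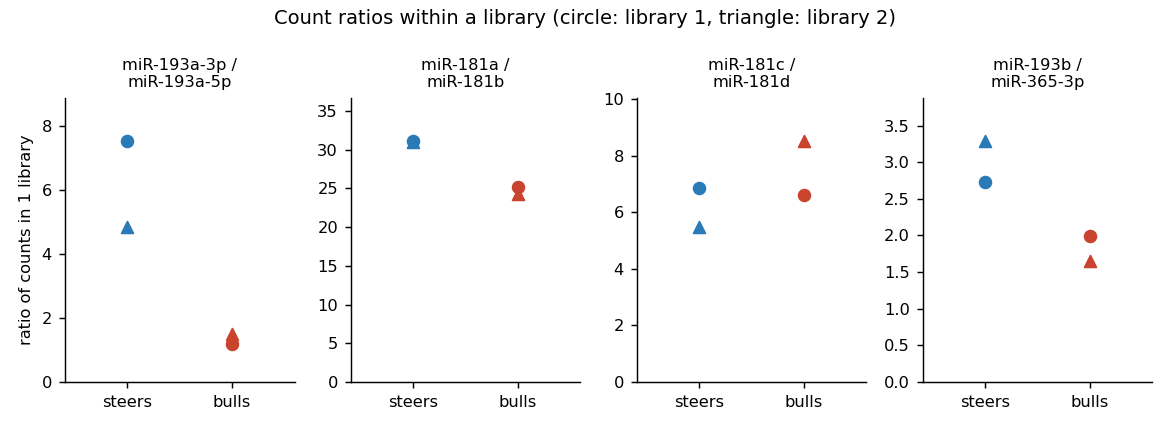
Ratio of the counts of 2 miRNAs within each library, for steers (blue) and bulls (red), with axes from 0. Circles are library 1 and triangles library 2. The groups lie apart for miR-193a-3p to miR-193a-5p, miR-181a to miR-181b and miR-193b to miR-365-3p, and overlap for miR-181c to miR-181d.

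Likeness of pattern was measured as the root mean square difference of centred log2 CPM over the 4 libraries, among 230 other known bovine miRNAs with a mean over 10 CPM. Closest to miR-181a were miR-744 (0.07), miR-660 (0.12) and miR-191 (0.12). Closest to miR-193a-3p were miR-1249 (0.25), miR-215 (0.27) and miR-10b (0.34). These 3 were also higher in steers by edgeR, at log2 fold changes of 1.53 (adjusted p = 0.0233), 1.74 (0.00484) and 1.35 (0.0123). The rise of miR-193a-3p was therefore not particular to it. The 3 were picked for their pattern, so their direction is no separate result. With 4 libraries this is a description of profiles.

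Rows with human, mouse or rat names of these families added little. There were 17 such rows, none with more than 2 counts in a library. Highest were rno-miR-181a-5p and hsa-miR-181c-3p with 4 counts each over all libraries, followed by rno-miR-181d-3p and others with 2.

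Markers of the cell types that IMF can hold were read beside these values. The 6 immune miRNAs of a marker list summed to 1038 and 814 CPM in steers and 2821 and 1435 CPM in bulls, and 2 of the 6 were called downregulated. The 7 muscle miRNAs summed to 5586 and 10724 CPM in steers and 8019 and 7099 CPM in bulls, with 1 called upregulated and 2 downregulated. The 2 endothelial miRNAs, from miR-126, summed to 14793 and 7863 CPM in steers and 21298 and 11456 CPM in bulls, with 1 called downregulated. The erythroid list (2 miRNAs) ranged from 12.4 to 23.0 CPM in steers and from 51.9 to 70.9 CPM in bulls, with 1 called downregulated. The 6 epithelial miRNAs summed to 4.76 CPM or less in every library, and the 1 that was tested was called downregulated. None of the markers was at 0 in all libraries. In the mRNA libraries, the 5 adipocyte markers had from 1153 to 9931 counts. Between the groups FABP4 was at -1.06 on the log2 scale, ADIPOQ at -0.68, PLIN1 at -0.38, LEP at 0.02 and CIDEC at 0.28. Of the 6 skeletal muscle genes 3 were above 0, with MYH1 at 1.15, TNNT3 at 0.11, MYH2 at 0.01, ACTA1 at -0.65, CKM at -0.67 and MYH7 at -2.23. The 4 T lymphocyte genes CD3E, CD3D, CD3G and CD2 had 66 counts together in steers and 487 in bulls. The part of these cell types in the values of the members was not tested.

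The mRNA libraries held 12677375 counts in steers and 9868415 in bulls. They give a view of genes known as targets of these miRNAs, with 1 pooled library per group and therefore no test. The lists were written from general knowledge of published targets. Of 10 targets of miR-181, 3 lay under -1 on the log2 scale with a prior of 0.5 counts and 0 over 1. Of these 3, PTPN22 (0 against 5 counts) and TNF (0 against 3) are too low for a fold, which leaves DUSP6. For comparison, 15.5% of all genes with a count were under -1 and 12.8% over 1. With at least 10 counts in both libraries together, 1 of 8 was under -1, compared with 11.4% of all genes, and 0 were over 1, compared with 6.44%.

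DUSP6, a phosphatase that switches off ERK kinases and a known miR-181a target in T cells, showed 481 counts in the steers library and 1381 in that of bulls, or -1.64 on the log2 scale (95% exact counting interval -1.80 to -1.49). DUSP5, a related phosphatase, had 40 and 72 counts and stood at -0.96 (-1.57 to -0.39). PTPN22, a phosphatase of T cell receptor signalling, was listed at 0 counts in steers and 5 in bulls. Its counting interval reached 0, so a difference was not detectable at this depth. TNF had 0 and 3 counts, too few for a fold. The other 6 genes ranged from -0.26 for PROX1 to 0.49 for TIMP3, an inhibitor of matrix proteases, and IDH1, which supplies NADPH for fat synthesis, was at 0.31 (0.15 to 0.48). The median of the 10 was -0.20. With PTPN22 taken at 3 counts in steers, the limit that a count of 0 allows, and TNF left out it was -0.15, while the median of all genes was 0.01.

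Of 12 targets of miR-193 or miR-365, 0 passed a log2 fold change of 1 in either direction. Over all genes with a count, 12.8% were over 1 and 15.5% under -1, so few of 12 would pass at that share. The range was from -0.81 for PLAU, a protease that activates plasminogen, to 0.76 for SHC1, an adaptor of receptor signalling. The median was -0.19, compared with 0.01 for all genes with a count. Over the 11 targets with at least 10 counts in both libraries together it was -0.02. RUNX1T1, a repressor of fat cell formation and a known target of miR-193b, was at 33 and 42 counts, or -0.47 on the log2 scale, with an interval from -1.17 to 0.22. CDON and IGFBP5, genes of the muscle program, were at 0.18 (0.05 to 0.30) and 0.19 (0.04 to 0.34). Of the genes that overlap the hairpins, NR6A1 showed 4 counts in the steers library and 0 in the other, and NANOS3 was at 0 in both.

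**Figure D5:**
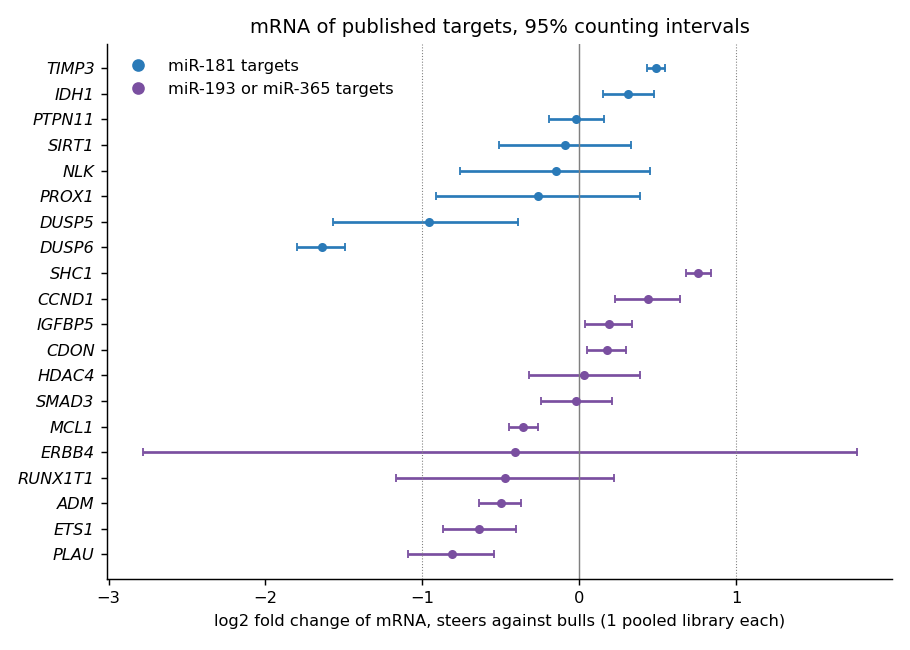
Log2 fold change of the mRNA of published targets in the pooled steers library against the pooled bulls library, with 95% exact intervals that cover counting error only. Blue points are targets of miR-181 and purple points targets of miR-193 or miR-365. DUSP6 at -1.64 lies beyond the dotted lines at -1 and 1, and PTPN22 and TNF are left out for their low counts.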

How the data were processed

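Small RNA and mRNA of intramuscular fat from steers and bulls were measured by sequencing, and libraries were grouped by the treatment or title in their labels. For miRNA, the deposited counts go back to HiSeq reads of at least 15 bases, which the authors mapped by BWA against miRBase 21 and the cattle genome. The authors made the mRNA counts from Ion Proton reads aligned with MapSplice 2.1.8. Both are raw counts, and the counting rules are not given in the sources used here.

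A model of group over all miRNA sequences was fitted by edgeR 4.0.16 (R 4.3.3) with TMM, filterByExpr, glmQLFit and glmQLFTest. Standard errors were derived from the fold change and its F statistic. Permutation tests and intervals used scipy 1.17.1. For mRNA, median-of-ratios size factors (1.04 and 0.959) were applied, with a prior of 0.5 counts. The edgeR fit was tested on simulated data. EBSeq, which the study used, was not used here.

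All 10 members were named, with the 3 known bovine miRNAs closest in pattern to miR-181a and to miR-193a-3p among those over 10 CPM. The members and the lists of markers and targets were chosen with earlier results of these data known. The background of hairpin arms was added after the values had been seen. Alternatives were other scalings, DESeq2 1.42.0, limma-voom (limma 3.58.1), no filter, known bovine miRNAs alone, the replicate number as a block, each library left out, rows summed by seed, no fold threshold and, for mRNA, total counts, a prior of 5 counts and a minimum of 10 counts.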

Additional observations from a re-analysis of the deposited data

How the results depend on the processing

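Low counts limit miR-365-5p (9 to 20 per library) and the row miR-193a (24 to 82). The count of members called upregulated, 1 as reported, was 0 with library totals, 2 with upper-quartile factors (miR-181d added) and 4 with known bovine miRNAs alone (miR-181a, miR-181c and miR-181d added). It ranged from 0 to 4 when each library was left out in turn, and it stayed at 1 with the other planned settings apart from the block below. The cause was not tested. The count called downregulated was 0 in every setting. With library totals miR-193b was at -0.38 and miR-365-5p at -0.29 on the log2 scale, and with no filter on low counts they were at -0.01 and -0.02, against 0.07 and 0.09 as reported. When single libraries were dropped, miR-193b ranged from -0.31 to 0.71, miR-365-5p from -0.51 to 1.15, miR-193a-5p from -0.71 to 0.13, the row miR-193a from 0.37 to 1.74 and miR-181b from 0.19 to 1.25. The group then left with 1 library was assumed to vary like the other. The ratio of the arms of miR-193a ranged from 1.85 to 2.48, and the other 3 ratios kept their direction as well.

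The replicate numbers are not stated to pair libraries, and the deviations of libraries with the same number from their group means correlated at 0.30 over sequences. With the replicate block, 2 members were called upregulated, miR-181d being added at 1.28. Over all sequences the block called 252, of which 119 were downregulated, compared with 152 and 76 as reported. Upregulated and downregulated sequences, 76 and 76 as reported, numbered 1 and 0 with library totals (298 at an unadjusted p under 0.05, 293 as reported), 34 and 36 with no filter, 39 and 36 with known bovine miRNAs alone, 101 and 52 with upper-quartile factors, 46 and 55 by DESeq2, and 20 to 110 and 6 to 45 with a library left out.

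Of the published mRNA targets, 5 passed a log2 fold change of 1 with total counts, compared with 3 as reported. The number was 2 with a prior of 5 counts and 1 with at least 10 counts in both libraries together. Of the 3 as reported, PTPN22 and TNF hold 5 and 3 counts in all. Total counts moved both lists down, with medians of -0.44 for miR-181 targets (-0.20 as reported) and -0.43 for miR-193 or miR-365 targets (-0.19 as reported). The share of all genes past the fold is not given for total counts or for the prior of 5 counts, so these 2 numbers have no background.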
